A study of Mus musculus with 4 samples.

Results

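Developmental and regional transcription factors were followed on 4 Affymetrix arrays of left hippocampus from male mice, all at 12 months of age. The 2 control arrays came from nontransgenic C57B6/SJL mice, and the 2 APPSw arrays from Tg2576 mice, which overexpress amyloid precursor protein carrying the Swedish mutation. The labels describe each array as holding RNA of a mouse but do not say that both arrays of a group came from separate animals, so each p-value reflects only the variation among these arrays, possibly technical in origin. The labels used here name no strain for the Tg2576 animals. In this line, as background, the transgene is driven by a hamster prion protein promoter, which is active across the brain.

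Members were chosen by gene symbol. They comprise the Sox, forkhead (Fox), POU, Lhx, Pax, Dlx, Hox, Neurod, Zic, Mef2, Tbx and Gata families, with Fezf2, Tbr1, Cux1, Nr4a2 and the Id genes. Of 12422 probe sets, each a group of short probes standing for a transcript, 181 matched, representing 134 of 8251 genes. The symbols also brought in 3 genes for other proteins (Foxred1, an oxidoreductase, Tbxa2r, the thromboxane receptor, and Tbxas1, thromboxane synthase) and 3 RNA genes (Dlx1as, Dlx6os2 and Hoxa11os). Pou2af1 encodes a coactivator, and the Id proteins bind partners but not DNA, so the members are not all DNA-binding factors. Emx1, Emx2, Lhx2, Sox9 and Otx2 were not analysed here.

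These factors bind short DNA motifs and set the identity of cells during development, and many remain on in the adult cells whose type they helped to fix. In the adult hippocampus, NeuroD factors and Tbr1 belong to excitatory neurons, Dlx and Lhx6 to interneurons, Sox10 to oligodendrocytes, and Sox2 and Id factors to glia and neural stem cells. Hox genes set position along the trunk and hindbrain and are usually silent in the forebrain. A factor's level in whole tissue therefore depends on which cells were dissected as well as on each cell's RNA, and fewer cells of a type cannot be told apart here from less RNA per cell.

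A probe set was tested if its geometric mean signal over the arrays was at least 565, the 40th percentile. By this filter 72 member probe sets of 62 genes were kept, 39.8% of the members against 60% of all probe sets, and 109 were not. Foxk1 and Hoxb1 had both control arrays under 565 and passed only through the APPSw arrays. Tbx2, with a control mean of 514, likewise passed through the APPSw arrays. Dlx2 and the dimmer Sox10 probe set, with APPSw means of 517 and 500, passed through the controls. Log2 signals were compared with limma over all 7453 kept probe sets, and every difference is APPSw minus control on the log2 scale.

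No member passed the adjusted threshold of 0.05, as 0% of all kept probe sets did, and the lowest adjusted p of a member was 0.599. At an unadjusted limma p under 0.05 there were 8 higher member probe sets, 11.1% against 4.72% of all kept probe sets, and 2 lower ones, 2.78% against 3.33%. Without Foxk1 and Hoxb1, and with probe sets of the same kind left out of all, the higher share was 6 of 70 members, 8.57% against 4.32%, a comparison added after the values were seen. It left out only probe sets with both arrays of a group under 565, so Tbx2, Dlx2 and the dimmer Sox10 probe set stayed in. The higher 8 were Foxk1, Sox11, Fezf2, Hoxd8, Hoxb1, Pax6 and a pair for Mef2c. The lower ones were Sox10 and Dlx2, both of which passed the filter through the controls. Both APPSw arrays lay above both controls for 23 members, 31.9% against 22.2% of all kept probe sets, and below both for 7, 9.72% against 19.0%. With 2 arrays a group, the smallest two-sided p of an exact permutation test is 0.333, so groups that do not overlap are given as a description.

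The median difference of the 62 kept member genes was 0.14, with 42 above 0 and 20 below, against a median of 0.01 over all 5670 kept genes. By probe set, 48 of 72 members (66.7%) had a difference above 0, against 52.7% of all kept probe sets. These counts and the median include Foxk1 and Hoxb1, which passed the filter only through the APPSw arrays. Against the control mean, the median was 0.19 for APPSw 1 and 0.05 for APPSw 2, while control 1 differed from control 2 by a median of -0.12. Signal strength moved with the direction of all probe sets. From the 40th to the 60th percentile of signal, 59.9% of all probe sets and 62.5% of 32 members had a difference above 0, close to each other. At or above the 60th percentile, a signal of 1549, the shares were 49.1% of all probe sets and 70.0% of 40 members. The part of signal strength in the members' shift was not tested further.

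**Figure D1:**
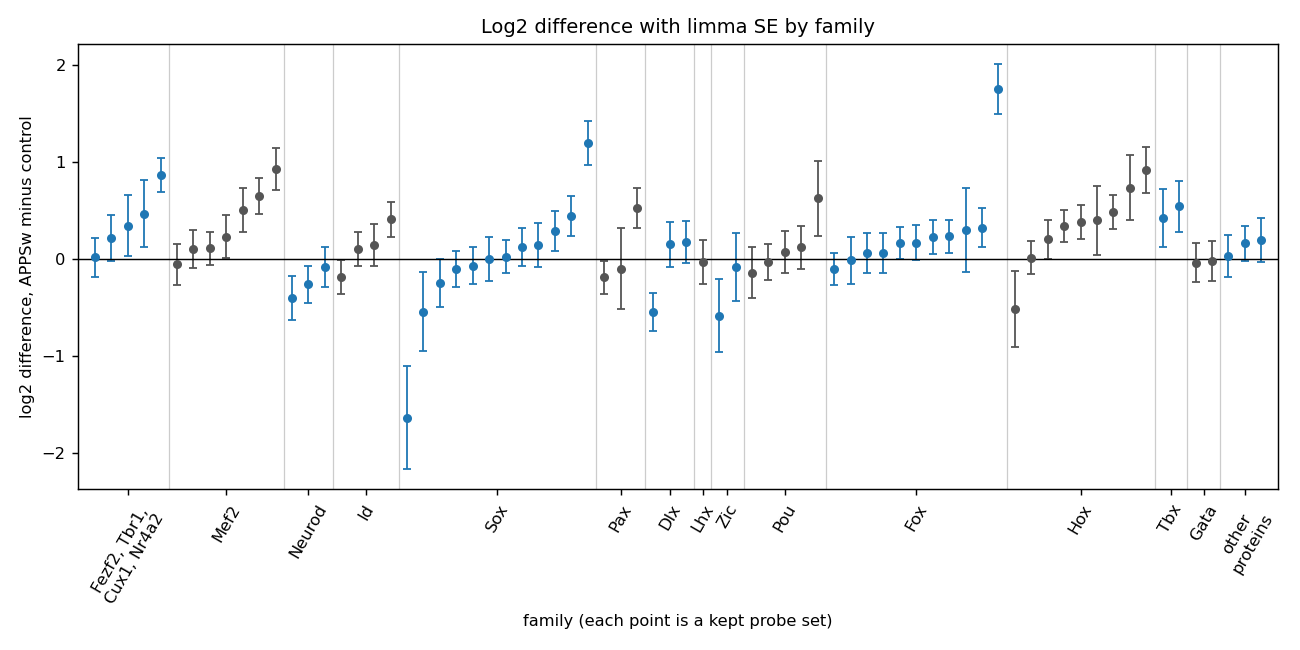
Log2 difference (APPSw minus control, vertical axis) of the 72 kept member probe sets, ordered within each symbol family on the horizontal axis. Points are limma estimates and bars are their SE. Foxk1 at 1.75 is the highest point and the dimmer Sox10 probe set at -1.64 the lowest, and most points lie within 0.5 of 0.

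Among factors of cortical and hippocampal projection neurons, Fezf2 was brighter on both APPSw arrays, while the other genes overlapped between the groups or differed less. Of 9 measured genes of this role, 7 were kept, 6 with a difference above 0 and 1 below, with a median of 0.23, which was 0.12 without control 1 and 0.49 without APPSw 1. By limma 0 of 9 kept probe sets passed the adjusted threshold, and 1 was higher at an unadjusted p under 0.05 (11.1% against 4.72% of all). Both APPSw arrays lay above both controls for 2 of the 9, the same 22.2% as over all kept probe sets. Fezf2 specifies the deep-layer neurons that send axons out of the cortex. Its signals were 4410 and 3797 in the controls and 7471 and 7451 on the APPSw arrays, so the groups lay well apart and the APPSw arrays nearly coincided. The difference was 0.87 (SE 0.177, adjusted p = 0.599).

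Tbr1, a T-box factor of deep-layer and hippocampal excitatory neurons, had signals of 4428 and 4949 in the controls, 4514 in APPSw 1 and 6558 in APPSw 2. APPSw 1 lay between the controls, and the difference of 0.22 (SE 0.235) came from APPSw 2. Nr4a2, an orphan nuclear receptor induced by activity, had 1488 and 2695 in the controls and 2292 and 2817 on the APPSw arrays. Control 1 was the low array, by its other probe set too (1027 against 1574 to 2305), and the differences of 0.34 (SE 0.316) and 0.47 (SE 0.342) were close to their errors. The Nr4a2 probe sets have consecutive identifiers and may share probes, so they may not be independent measurements. Cux1, a homeodomain factor of upper-layer neurons, had 3298 and 2864 in the controls and 3479 and 2775 on the APPSw arrays, a difference of 0.016 (SE 0.201) with fully overlapping groups.

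The POU factors of this role gave no common picture. Pou3f1 differed by -0.14 (SE 0.263). Pou3f3, which acts in cortical neuron development, had signals of 382 and 865 in the controls and 931 and 841 on the APPSw arrays. That difference of 0.62 (SE 0.389) rested on control 1 and was 0.03 without it. Foxp1, a forkhead factor of striatal and cortical neurons, had differences of 0.06 and 0.23 by its probe sets.

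Other markers of neocortex bear on whether the dissections held the same region. Of 14 listed markers 9 were measured, and 4 of these are not members. The summed signal of those 4 was 18058 and 18807 in the controls, 19905 in APPSw 1 and 26595 in APPSw 2, and 0 of them were at 0. A single gene, Lmo4, carried that sum. The other 3, separated from it after the values were seen, summed to 4684 and 4696 in the controls, 4402 in APPSw 1 and 4187 in APPSw 2. Of the 4 markers, only Lmo4, with a difference of 0.44, and 1 of the other 3, with -0.10, passed the signal filter. The sums of the other 3 are thus partly of dim signals. Their part in the differences of the projection neuron factors was not tested.

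**Figure D2:**
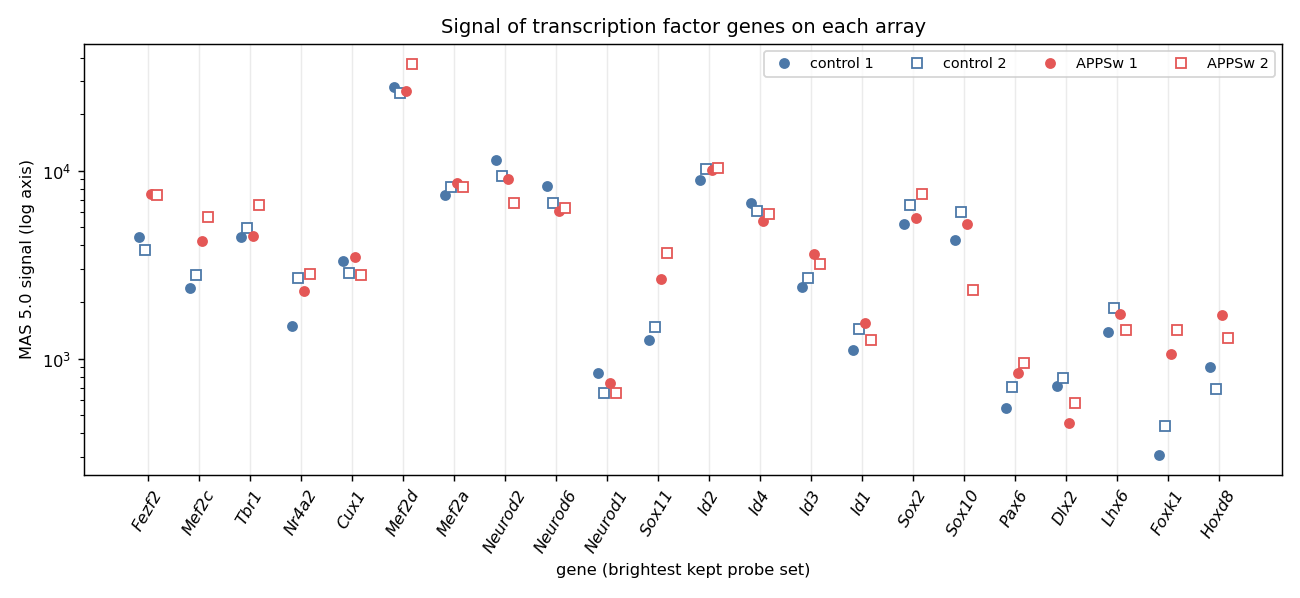
MAS 5.0 signal (log axis) of 22 member genes, each by its brightest kept probe set, on the control arrays (blue) and APPSw arrays (red), with circles for replicate 1 and open squares for replicate 2. Both red marks lie above both blue ones for Fezf2, Mef2c, Mef2a, Sox11, Id3, Pax6, Foxk1 and Hoxd8. They lie below for Neurod2, Neurod6, Id4 and Dlx2, and Sox10 shows APPSw 2 alone far below the rest.

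The Mef2 proteins are MADS-box factors that bind A/T-rich sites and act in neuronal survival and activity-dependent synapse remodelling. All 4 genes of the family were kept, and all 4 differences were above 0, with a median of 0.17, which was 0.27 without APPSw 1. By limma 0 of the 7 kept probe sets passed the adjusted threshold, and 2, both of Mef2c, were higher at an unadjusted p under 0.05 (28.6% against 4.72% of all). Mef2c carried the family's difference. Its brightest probe set read 2363 and 2799 in the controls and 4234 and 5653 on the APPSw arrays, so the lowest APPSw signal exceeded the highest control signal by a wide margin. The difference was 0.93 (SE 0.219, adjusted p = 0.599). A second probe set read 1632 and 1655 against 2318 and 2870, a difference of 0.65 (SE 0.189), and another read 1022 and 1346 against 1484 and 1870, a difference of 0.51 (SE 0.226). The remaining one read 731 and 986 in the controls and 799 and 833 on the APPSw arrays, a difference of -0.06 (SE 0.21), and thus did not share the pattern. The first 3 have consecutive identifiers of 1 design group and may share probes, so they may not be independent measurements.

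The paralogues of Mef2c were nearer to the controls. Mef2a had signals of 7425 and 8175 in the controls and 8597 and 8207 on the APPSw arrays, a difference of 0.11 (SE 0.172). A dim Mef2a probe set under the filter differed by -1.08. Mef2d, a paralogue abundant in adult neurons, had 27882 and 25933 in the controls, 26701 in APPSw 1 and 37140 in APPSw 2. The difference of 0.23 (SE 0.22) came from APPSw 2. Mef2b differed by 0.10 (SE 0.201).

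Proteins that hold Mef2 factors in check or activate them were measured beside them. Of 6 measured genes 5 were kept, 1 above 0 and 4 below, with a median of -0.20 that was -0.31 without APPSw 1 and -0.11 without APPSw 2. By limma 0 passed the adjusted threshold, and 0 had an unadjusted p under 0.05. Ppp3ca, the catalytic subunit of the phosphatase calcineurin, had signals of 31608 and 29906 in the controls and 23656 and 23986 on the APPSw arrays, a difference of -0.37 (SE 0.167, adjusted p = 0.612). Mapk14, the p38 kinase that phosphorylates Mef2 proteins, had 8461 and 7952 against 6500 and 5602, a difference of -0.44 (SE 0.179, adjusted p = 0.612). For both genes the APPSw arrays lay below both controls.

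Among factors of neuronal differentiation, Sox11 was higher on the APPSw arrays and Neurod2 and Neurod6 were lower. Of 6 measured genes 5 were kept, 2 above 0 and 3 below, with a median of -0.08 that was -0.26 without control 2 and 0.0 without APPSw 2. Sox11, a SoxC factor of newborn neurons, had signals of 1261 and 1475 in the controls and 2665 and 3662 on the APPSw arrays, with no overlap. The difference was 1.20 (SE 0.224, adjusted p = 0.599). Its dimmer probe set, which did not pass the filter, read 257 and 375 against 432 and 577, a difference of 0.69 in the same direction. The related Sox4, which overlaps with Sox11 in newborn neurons, differed by 0.12 (SE 0.194) by its brighter probe set and by -0.07 (SE 0.193) by the other.

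The NeuroD proteins are basic helix-loop-helix activators of excitatory neurons, and all 3 kept genes had differences below 0. Neurod2, which acts in the maturation of excitatory neurons, had signals of 11382 and 9342 in the controls and 9052 and 6711 on the APPSw arrays, a difference of -0.40 (SE 0.226, adjusted p = 0.636). Neurod6, a mark of pyramidal neurons, had 8282 and 6691 against 6100 and 6304, a difference of -0.26 (SE 0.189). In both, the APPSw arrays lay under both controls, though the gap between the controls themselves was 0.28 and 0.31 on the log2 scale. Neurod1, which is needed for dentate granule neurons, had 841 and 655 against 743 and 659, a difference of -0.08 (SE 0.203) with overlap, and 0.0946 without control 1. Neurod4, too dim to be kept, went the other way, with 93.9 and 59.5 in the controls against 191 and 196, a difference of 1.37.

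Markers of hippocampal principal neurons, measured for 13 of 15 listed genes, had a summed signal of 105420 and 108207 in the controls and 91028 and 87662 on the APPSw arrays, and 0 were at 0. Of 12 kept genes 9 lay below 0, with a median of -0.28, so they moved the same way as Neurod2 and Neurod6. Their part in the NeuroD values was not tested.

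Among members at or above the 60th percentile of signal, Sox11, Mef2c and Fezf2 had the largest positive differences. Their upstream sequences are shown to set these genes beside motifs that members and their partners bind. Each window is the 250 bases before the RefSeq transcription start (GRCm38.p6), and for Mef2c the start farthest upstream of 3. Capitals mark matches, on either strand, to CAGCTG (an E-box of the kind bound by NeuroD with E proteins), CCAAT (the CCAAT box), TATAAA (the TATA box), ACAAAG (a Sox site) and TGACGTCA (the cAMP response element). No searched motif shares bases with another here.
Sox11, chr12:27342719-27342968, minus strand: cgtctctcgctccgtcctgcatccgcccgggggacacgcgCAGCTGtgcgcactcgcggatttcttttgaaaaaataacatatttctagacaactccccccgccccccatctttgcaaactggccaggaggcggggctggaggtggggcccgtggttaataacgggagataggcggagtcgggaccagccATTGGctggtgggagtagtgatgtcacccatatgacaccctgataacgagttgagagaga
Fezf2, chr14:12345866-12346115, minus strand: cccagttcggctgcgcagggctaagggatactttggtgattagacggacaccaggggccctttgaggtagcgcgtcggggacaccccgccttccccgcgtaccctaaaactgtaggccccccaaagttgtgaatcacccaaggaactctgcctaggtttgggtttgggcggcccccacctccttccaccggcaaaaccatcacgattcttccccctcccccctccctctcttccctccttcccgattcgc
Mef2c, chr13:83503784-83504033, plus strand: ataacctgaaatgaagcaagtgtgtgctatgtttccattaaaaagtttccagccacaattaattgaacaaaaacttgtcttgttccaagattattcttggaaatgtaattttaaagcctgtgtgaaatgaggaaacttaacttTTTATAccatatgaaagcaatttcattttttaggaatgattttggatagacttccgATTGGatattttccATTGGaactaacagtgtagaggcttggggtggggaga

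The Sox11 window holds CAGCTG beginning 210 bases before the start and a reversed CCAAT 60 bases before it. The Mef2c window holds a reversed TATAAA 107 bases before the start and reversed CCAAT 51 and 37 bases before it. None of the 5 motifs was found in the Fezf2 window. Of 32851 listed windows of the same length, 13% hold CAGCTG, 33.8% CCAAT, 12.4% TATAAA, 16.5% ACAAAG and 1.55% TGACGTCA. Among the 113 windows of member genes the shares were 11.5%, 47.8%, 11.5%, 21.2% and 1.77%. The 3 genes thus had no searched motif in common, and a match describes letters and not a bound site.

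The Id proteins lack a DNA-binding region and keep E proteins and NeuroD-type factors from DNA. All 4 were kept, 3 with a difference above 0, with a median of 0.12 and 0 past the adjusted threshold. The median was -0.02 without control 1 and 0.27 without control 2. Id3, which is strong in vessels and astrocytes, had signals of 2416 and 2698 in the controls and 3602 and 3180 on the APPSw arrays. Its APPSw arrays lay above both controls, a difference of 0.41 (SE 0.18, adjusted p = 0.612). Id4, which is found in astrocytes and progenitors, went the other way, with 6730 and 6090 in the controls against 5431 and 5846, a difference of -0.18 (SE 0.174). Id1 had 1106 and 1434 against 1538 and 1259, a difference of 0.14 (SE 0.217). Id2 had 8880 and 10193 against 10139 and 10270, a difference of 0.10 (SE 0.176). For Id1 and Id2 the groups overlapped.

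Among the basic helix-loop-helix partners and repressors, 8 genes were measured and kept, 5 above 0 and 3 below, with a median of 0.12 (0.06 without APPSw 1) and 0 at an unadjusted p under 0.05. Hes5, a Notch-driven repressor of neurogenesis, had 774 and 993 in the controls against 562 and 762, a difference of -0.42 (SE 0.236), and 0.83 by a dim probe set under the filter. Tcf3, an E protein, had 1017 and 1049 against 1613 and 1121, a difference of 0.38 (SE 0.228), most of it from APPSw 1.

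Progenitor and glial factors held the lowest difference of the kept members. Of 6 measured genes 5 were kept, 2 above 0 and 3 below. Sox10, the factor that starts and sustains myelin gene expression in oligodendrocytes, had signals of 4278 and 6047 in the controls, 5200 in APPSw 1 and 2330 in APPSw 2 by its brighter probe set. APPSw 1 lay between the controls and only APPSw 2 was low, a difference of -0.55 (SE 0.408), and 0.03 without APPSw 2. The dimmer probe set read 1056 and 1745 in the controls, 745 in APPSw 1 and 256 in APPSw 2. Here both APPSw arrays were below the controls, a difference of -1.64 (SE 0.531, adjusted p = 0.599). With APPSw 2 left out it was -0.87.

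Oligodendrocyte markers had the same low array. Of 12 listed markers 9 were measured, their summed signal was 100605 and 105582 in the controls, 98316 in APPSw 1 and 80875 in APPSw 2, and 0 were at 0. For 8 of the 9 the dimmest array was APPSw 2. The part of these cells in the Sox10 value was not tested.

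Pax6, a paired-box factor of neural stem cells, had signals of 543 and 703 in the controls and 838 and 944 on the APPSw arrays, a difference of 0.53 (SE 0.205, adjusted p = 0.612) with no overlap. Sox2, which maintains stem cells and is also present in astrocytes, had 5234 and 6575 against 5584 and 7506, a difference of 0.14 (SE 0.23) with overlap. Foxj1, the factor for motile cilia of ependymal cells, had 2191 and 1912 against 2470 and 1658, a difference of -0.02 (SE 0.245). Astrocyte markers had summed signals of 105776 and 104706 in the controls and 102721 and 105428 on the APPSw arrays. Single markers went both ways, with differences of -0.41 to 0.53 and a median of -0.13 over 8 kept genes.

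**Figure D3:**
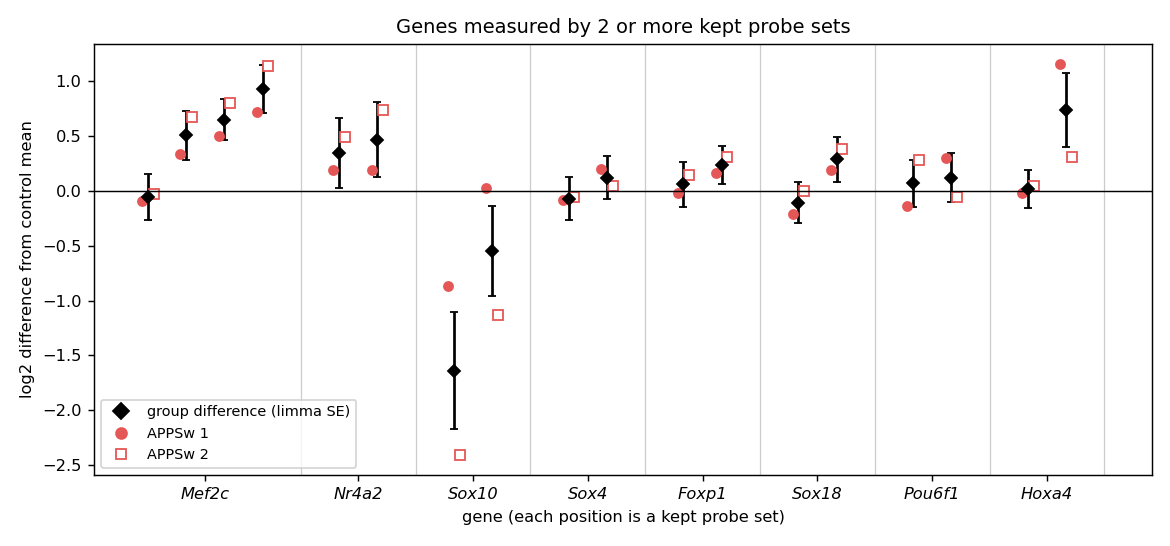
Log2 difference from the control mean (vertical axis) for the 8 member genes with 2 or more kept probe sets, each probe set at its own position. Black diamonds are the group difference with limma SE, red circles APPSw 1 and open red squares APPSw 2. In 5 of the 8 genes the group differences of all kept probe sets share a sign, and 3 of 4 Mef2c probe sets lie above 0.5.

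Agreement between probe sets varied across the 8 member genes with 2 or more kept probe sets. The signs agreed for 5 genes, Nr4a2, Sox10, Foxp1, Pou6f1 and Hoxa4, and differed for Mef2c, Sox4 and Sox18. The Nr4a2 probe sets may share probes. Within Hoxa4 one difference was 0.73 (SE 0.338) and the other 0.01 (SE 0.173), so agreement in sign did not mean agreement in size.

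Interneuron factors showed a lower Dlx2 and little else. Of 8 measured genes 4 were kept, 2 above 0 and 2 below, with a median of 0.06 that was -0.14 without control 1. Dlx2, a homeodomain factor that specifies GABA neurons, had signals of 717 and 788 in the controls and 456 and 578 on the APPSw arrays, all near the filter, a difference of -0.55 (SE 0.198, adjusted p = 0.609). Its neighbour Dlx1 had 1120 and 1017 against 982 and 1427, a difference of 0.15 (SE 0.234), and an antisense gene, Dlx1as, overlaps it, so signals of this locus are uncertain. Dlx5 differed by 0.17 (SE 0.213). Lhx6, the LIM factor of somatostatin and parvalbumin interneurons, had 1385 and 1856 against 1722 and 1428, a difference of -0.03 (SE 0.222).

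The 9 measured interneuron markers that are not members had summed signals of 153122 and 144931 in the controls and 137755 and 151721 on the APPSw arrays, with a median difference of 0.05 over 8 kept genes. No list-wide difference accompanied Dlx2. Cofactors of the LIM factors were level as a list, with 6 kept genes, 3 above 0 and 3 below, and a median of 0.02 that was -0.01 without APPSw 2. Lmo4, a LIM-only protein of cortical neurons, had signals of 13374 and 14112 in the controls against 15503 and 22408, a difference of 0.44 (SE 0.23), and Ldb2, a LIM-domain binding adaptor, differed by 0.39 (SE 0.232).

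Factors of the diencephalon, midbrain and hindbrain were mostly dim, as 4 of 18 measured genes were kept. All 4 differences were below 0, with a median of -0.09, but the APPSw arrays disagreed, with medians of 0.29 in APPSw 1 and -0.67 in APPSw 2. Zic1, a zinc finger factor of the dorsal midline and cerebellum, had signals of 1958 and 2094 in the controls, 2734 in APPSw 1 and 1330 in APPSw 2. The APPSw arrays lay on opposite sides of the controls, and the difference was -0.09 (SE 0.351). Zic2, its relative, had 1174 and 1024 in the controls, 1074 in APPSw 1 and 497 in APPSw 2, a difference of -0.59 (SE 0.373), and -0.03 without APPSw 2. A dim Zic2 probe set differed by 1.24. Gata2 had 1899 and 1571 against 1908 and 1521, a difference of -0.02 (SE 0.208). Pax5 had 1215 and 1433 against 1914 and 789, a difference of -0.10 (SE 0.419).

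Markers of the tissues next to the hippocampus were also uneven between the APPSw arrays. Choroid plexus markers, measured for 13 genes, had summed signals of 30824 and 21298 in the controls, 153700 in APPSw 1 and 24900 in APPSw 2, and 11 of the 13 were brightest in APPSw 1. Those of meninges and fibroblasts had 56139 and 66503 in the controls, 97383 in APPSw 1 and 66285 in APPSw 2. Thalamus and habenula markers that are not members had 17086 and 16439 in the controls, 17932 in APPSw 1 and 16038 in APPSw 2. The high Zic1 array was thus the array with the most choroid plexus and meningeal signal, and their part in the Zic1 value was not tested.

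Factors of endothelial, mural and meningeal cells had a median above 0 on both APPSw arrays, 0.22 in APPSw 1 and 0.38 in APPSw 2. Sox7 and Tbx2 overlapped between the groups, and Tbx2 passed the filter through the APPSw arrays. Of 11 measured genes 5 were kept, all 5 above 0, with a median of 0.29 (0.16 without control 1) and 0 at an unadjusted p under 0.05. Sox17, a SoxF factor of arterial endothelium, had signals of 1534 and 1722 in the controls and 1941 and 2509 on the APPSw arrays, a difference of 0.44 (SE 0.205). Sox18, another SoxF factor, differed by 0.29 (SE 0.208) by its brighter probe set and by -0.11 (SE 0.185) by the other. Sox7 had 613 and 685 against 658 and 659, a difference of 0.02 (SE 0.172). Tbx2, a T-box repressor, had 383 and 644 against 579 and 766, a difference of 0.42 (SE 0.301), which was 0.05 without control 1. Endothelial and mural markers did not share this shift, with summed signals of 11772 and 10474 in the controls and 10634 and 10733 on the APPSw arrays and a median difference of -0.0 over 7 kept genes. Markers of meninges and fibroblasts did, with 8 of 9 kept genes above 0 and a median of 0.56, at 0.55 in APPSw 1 and 0.21 in APPSw 2. The part of those cells in the factors' values was not tested.

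**Figure D4:**
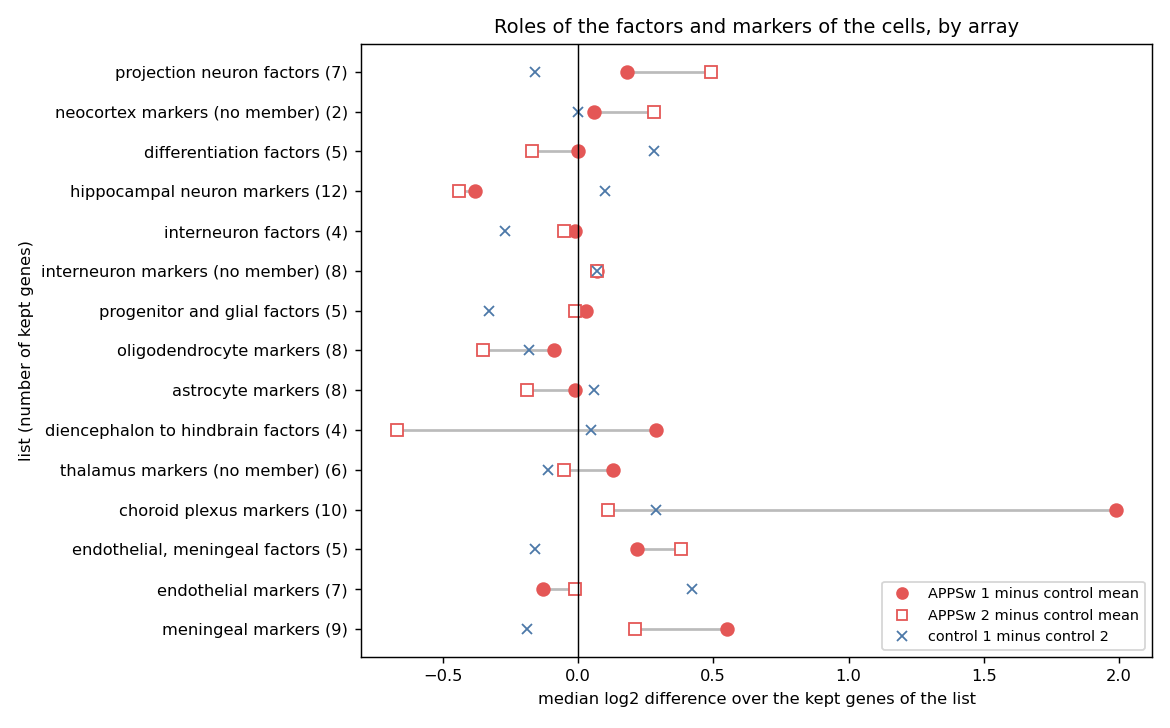
Median log2 difference over the kept genes of each role or marker list (horizontal axis), for APPSw 1 (circles) and APPSw 2 (open squares) against the control mean, with control 1 minus control 2 as crosses. The number of kept genes follows each name. Choroid plexus markers lie at 1.99 in APPSw 1 and 0.11 in APPSw 2, and the diencephalon to hindbrain factors at 0.29 and -0.67.

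Foxk1 had the largest difference of the kept members. This forkhead factor takes part in metabolic and autophagy gene control in many tissues. Its signals were 306 and 438 in the controls and 1064 and 1424 on the APPSw arrays, a difference of 1.75 (SE 0.258, adjusted p = 0.599), but both control signals lay under the filter, so their size is poorly known. Its paralogue Foxk2 had 2596 and 2738 against 2447 and 2519, a difference of -0.10 (SE 0.168). The FoxO factors, which switch on stress-resistance genes when insulin signalling is low, were slightly brighter. Foxo3 had 4436 and 4346 in the controls against 4898 and 4958, and Foxo4 had 6480 and 6582 against 8021 and 6705, both a difference of 0.17 (SE 0.166 and 0.182). Foxl1 differed by 0.32 (SE 0.2), and Foxq1 by 0.06 (SE 0.204).

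Hox genes were mostly dim, and most kept ones were brighter on the APPSw arrays. Of 32 measured genes 8 were kept, 7 above 0 and 1 below, with a median of 0.36 that was 0.19 without APPSw 1 and 0.22 without control 2. Of 9 kept probe sets, 5 had both APPSw arrays above both controls, 55.6% against 22.2% of all kept probe sets and 26.8% of those between the 40th and 60th percentile of signal. Hoxb1, among those 5 and in the median, passed the filter only through the APPSw arrays. Hoxd8 had signals of 898 and 687 in the controls and 1704 and 1289 on the APPSw arrays, a difference of 0.92 (SE 0.234, adjusted p = 0.599), whereas its other probe set, under the filter, read 121 and 253 against 133 and 96.3, a difference of -0.63. Hoxb1 had 532 and 514 against 781 and 682, a difference of 0.48 (SE 0.176, adjusted p = 0.609). Both are patterning genes of the hindbrain and trunk, and no detection call was used here to say whether their transcripts were present.

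The probe sets of a Hox gene could differ in pattern. For Hoxa4 one read 6342 and 7102 in the controls and 6631 and 6919 on the APPSw arrays, while another read 12.3 and 12.8 in the controls and 70.3 and 116 on the APPSw arrays, too dim to be kept. The first, level across the groups, has an identifier ending in r, given to probe sets for which some selection rules were dropped. The kept probe sets of Hoxa6 and Hoxb8 end in r too, and for that of Hoxb8 both APPSw arrays lay above both controls. It read 3252 and 3203 against 4067 and 4076, while another Hoxb8 probe set, too dim to be kept, read 98.5 and 87.1 against 472 and 99.6. Of all 181 members 32 end in f, s, r or i, marks of shared or limited probes, and 8 of these were kept. The TALE cofactors of Hox proteins had 4 kept genes of 7 measured, 1 above 0 and 3 below, with a median of -0.10 that was -0.26 without control 1 and 0.05 without control 2. Pbx2 differed by -0.34 (SE 0.21), and Pbx3 by 0.22 (SE 0.245), -0.0013 and -0.05 by different probe sets.

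Of the remaining families, Tbx6, a mesoderm factor, had 717 and 1134 in the controls against 1398 and 1237, a difference of 0.54 (SE 0.262). Gata4, a heart and endoderm factor, had 1384 and 1190 against 1384 and 1128, a difference of -0.04 (SE 0.198). Pax4, a pancreatic islet factor, had 1149 and 1065 against 1009 and 931, a difference of -0.19 (SE 0.172). Of these only Gata4 overlapped between groups.

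The 109 members under the filter had signals from 3 to 2286. Their median difference was 0.35, with 75 above 0 and 34 below (68.8% above), where all 4969 probe sets under the filter had a median of 0.21 and 61.6% above 0. Both APPSw arrays lay above both controls for 30 of them, 27.5% against 25.8% of all such probe sets, and below for 6, 5.5% against 10.7%. Among them, and chosen after its values were seen, Pou3f2 had signals of 224 in control 1, 2286 in control 2, 238 in APPSw 1 and 230 in APPSw 2. This POU factor of cortical neurons was thus bright on a single control array.

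Other factors of hippocampal and cortical neurons outside these families had differences in both directions. Of 9 measured genes 7 were kept, 3 above 0 and 4 below, with a median of -0.10 that was 0.18 without control 1. By limma 0 passed the adjusted threshold, and 2 of 10 kept probe sets were lower at an unadjusted p under 0.05 (20.0% against 3.33% of all). Egr1, an immediate early gene, had 5559 and 8358 in the controls and 4184 and 3600 on the APPSw arrays, a difference of -0.81 (SE 0.249, adjusted p = 0.599), while its dim probe set under the filter differed by 1.20. Nr2f1, a nuclear receptor that patterns the cortex and hippocampus, had 5580 and 4560 against 3954 and 3874, a difference of -0.37 (SE 0.187). The kept Egr1 probe set was among the 2 lower ones counted above, while that of Nr2f1 was not. The other lower probe set is not described here.

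Both APPSw arrays had a higher median signal than both controls, though every array had been scaled to a target of 2500. The median signal was 926.3 and 988.3 on the controls and 1033.4 and 1013.1 on the APPSw arrays. For kept members, the median fold between arrays was 1.188 for the control pair, 1.222 for the APPSw pair and 1.175 to 1.254 for the pairs of unlike genotype. The spread within a group was thus about as wide as that between groups for the typical member, and the number of arrays limits the precision of every value.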

How the data were processed

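RNA of left hippocampus was measured on 4 arrays. The deposited values are linear signal intensities from the authors' MAS 5.0 run, brought to a target of 2500 per the labels. Background settings are not given, and detection calls were not used here. Of 12488 probe sets, 66 controls were left out. Gene symbols came from the platform annotation, and all 134 member genes were found in RefSeq (GRCm38.p6); 3 probe sets naming a member beside another gene were left out.

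The log2 of each deposited signal entered a two-sided limma fit (version 3.58.1, R 4.3.3, eBayes), adjusted by Benjamini-Hochberg over 7453 probe sets, with 2 residual and 3.7 prior degrees of freedom. The fit was tested on simulated data. A gene in a list stands by its brightest kept probe set. Members and lists were chosen with earlier results of these data known. The named genes are 18 measured factors fixed by name. To these come the 2 kept genes with the largest moderated statistic of each family and each partner list. Their kept probe sets are given, and those under the filter for some genes only. Other members are named as examples of their role. Same-numbered arrays were checked for pairing, and their deviations from the group means correlated at -0.02, so no block was used. The alternatives were quantile normalization, other filters, a floor, a pseudocount, a replicate block and each array left out.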

Additional observations from a re-analysis of the deposited data

How the results depend on the processing

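No probe set and no member passed the adjusted threshold of limma under any alternative; at an unadjusted p under 0.05 there were 352 higher and 248 lower probe sets. Member probe sets at an unadjusted p under 0.05 numbered 8 higher and 2 lower. With quantile normalization they were 6 and 2, and with no filter 16 and 1. With the filter at the 60th percentile they were 6 and 0, and with a pseudocount of 250 they were 6 and 1. With the replicate block the counts were 8 and 2, so the block, whose numbers were not shown to pair the arrays, changed no call. With an array left out they ranged from 6 to 12 higher and from 0 to 6 lower, with 12 higher and 0 lower without control 2, and 6 lower without APPSw 1. Members with both APPSw arrays above both controls numbered 23, 53 with no filter, 14 with the stricter filter, and 31 to 41 with an array left out. Those below numbered 7, then 13 and 4 by these filters, and 12 to 18 with an array left out, where fewer arrays make overlap rarer. With quantile normalization 21 members lay above and 9 below. The members' median of 0.14 was 0.1 with that normalization, and it ranged from 0.05 to 0.19 over the alternatives. Of 51 probe sets of named genes, all kept their sign under each alternative with all arrays and 33 with an array left out. The others ranged as follows with an array left out: Sox2 from -0.0712 to 0.36, Id1 from -0.0432 to 0.33, Pou3f1 from -0.40 to 0.11, Tbr1 from -0.0525 to 0.49, Gata4 from -0.19 to 0.11 and Gata2 from -0.18 to 0.14. The brighter Sox10 probe set ranged from -1.13 to 0.0319, Zic1 from -0.61 to 0.43, Mef2d from -0.010 to 0.47, Nr4a2 from -0.0852 to 0.77, Neurod1 from -0.26 to 0.0946, Dlx5 from -0.0295 to 0.38 and Lhx6 from -0.24 to 0.18. The Mef2c probe set below 0 ranged from -0.27 to 0.16, Cux1 from -0.15 to 0.18, and the Pbx3 probe sets from -0.0828 to 0.53, -0.0873 to 0.0847 and -0.27 to 0.16. Fezf2 (0.76 to 0.97), Sox11 (0.97 to 1.43), Foxk1 (1.49 to 2.01) and the brightest Mef2c probe set (0.72 to 1.14) kept their direction. Their groups did not overlap, so leaving out an array could not have changed that direction. Apart from the array left out in each, the cause was not tested.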
